A study of Mus musculus with 48 samples.

Results

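The 42 genes described here encode proteins of the synaptic vesicle and of the machinery that releases it. They were chosen by gene symbol, and each had a row in both deposited expression tables. The tables shared 16952 genes, of 27082 in the table of wild type mice and 18939 in the table of *APOE* mice. All 42 genes had reads in each of the 48 mice, so that each was tested in all 16 comparisons below.

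The RNA came from the cerebral cortex of 48 mice in 12 groups of 4. The 16 B6 mice were wild type C57BL/6J, aged 4 months at collection, and breathed either filtered air (controls) or nPM, re-aerosolized nano-sized particles collected beside an urban freeway, for 8 weeks. The 32 *APOE*-TR mice carried human *APOE3* or *APOE4* in place of the mouse gene by targeted replacement, were aged 6 months, and were exposed for 15 weeks. In both experiments exposure lasted 5 hours a day on 3 days a week, and each genotype was split by sex and exposure. No group carried any other transgene. Every *APOE*-TR mouse carried a human allele and no *APOE*-TR mouse carried the mouse gene, so these data compare APOE4 with APOE3 and not with its absence. Genotype, age, length of exposure and particle batch all differed between the 2 tables, and their effects on a level cannot be told apart.

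A neuron stores transmitter in small vesicles that are filled by transporters, tethered to the cytoskeleton by synapsins and brought to the active zone, a protein lattice opposite the receiving cell. There the vesicles are docked by Rab3 and RIM proteins, primed by Munc13, and held ready by SNARE proteins and complexin until calcium bound to synaptotagmin triggers fusion. The membrane is then taken back by dynamin and amphiphysin, and the SNARE complex is taken apart by NSF and the SNAPs for another round. In the cortex most of these vesicles belong to glutamatergic neurons, which load them mainly through VGLUT1 (*Slc17a7*), while VGLUT2 (*Slc17a6*) marks terminals arriving from the thalamus.

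By role the genes fell into 3 synapsins, 7 membrane proteins of the vesicle, 4 SNARE proteins, 7 members of the synaptotagmin and Doc2 families, which include the calcium sensors, 3 Rab3 GTPases, 7 active zone proteins, 3 complexins, 4 chaperones of the SNARE cycle, 2 endocytic proteins and 2 vesicular glutamate transporters.

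The promoter windows of 4 of these genes are shown because *Syn1* and *Bsn* had the largest increases with APOE4 in females, *Synpr* the largest decrease, and *Rims1* was lower with APOE4 in males at both exposures. Each window is the 250 bases upstream of a RefSeq start site in GRCm38.p6, written 5′ to 3′ on the gene's own strand. *Syn1* lies at chrX:20860511-20920919 and its window at chrX:20920919-20921168, minus strand. *Bsn* lies at chr9:108096022-108190384 and its window at chr9:108190384-108190633, minus strand. *Synpr* lies at chr14:13284780-13615470 and the window of its upstream start at chr14:13284530-13284779, plus strand. *Rims1* lies at chr1:22288422-22805725 and its window at chr1:22806159-22806408, minus strand. Capitals mark TGACGTCA, the cAMP response element, and GGGCGG or its reverse complement, the GC box.
Syn1: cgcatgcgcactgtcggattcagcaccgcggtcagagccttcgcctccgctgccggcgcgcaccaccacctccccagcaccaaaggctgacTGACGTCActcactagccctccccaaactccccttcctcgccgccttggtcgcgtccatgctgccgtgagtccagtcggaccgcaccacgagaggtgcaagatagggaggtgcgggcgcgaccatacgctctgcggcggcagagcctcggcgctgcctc
Bsn: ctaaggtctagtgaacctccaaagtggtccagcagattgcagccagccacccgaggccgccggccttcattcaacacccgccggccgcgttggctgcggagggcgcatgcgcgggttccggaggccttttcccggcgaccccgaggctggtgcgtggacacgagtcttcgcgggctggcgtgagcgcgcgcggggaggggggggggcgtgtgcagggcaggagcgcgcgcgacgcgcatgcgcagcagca
Synpr: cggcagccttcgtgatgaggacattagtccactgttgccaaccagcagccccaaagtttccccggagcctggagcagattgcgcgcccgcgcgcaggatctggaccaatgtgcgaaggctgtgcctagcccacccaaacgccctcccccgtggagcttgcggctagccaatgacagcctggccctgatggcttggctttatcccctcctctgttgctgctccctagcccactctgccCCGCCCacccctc
Rims1: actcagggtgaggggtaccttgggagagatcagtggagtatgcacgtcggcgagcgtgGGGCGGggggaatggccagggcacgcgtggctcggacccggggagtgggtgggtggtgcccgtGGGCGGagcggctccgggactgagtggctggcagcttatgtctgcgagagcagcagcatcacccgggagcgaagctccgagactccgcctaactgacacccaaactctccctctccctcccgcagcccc

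These windows were rich in CpG, with 27 in *Syn1*, 32 in *Bsn*, 13 in *Synpr* and 19 in *Rims1*. Both strands were searched for the GC box, the cAMP response element and the TATA box (TATAAA), and none of these motifs contains another. In all, 33 of the 42 genes matched an entry, with 42 windows between them. *Dnajc5*, *Doc2b*, *Rims2*, *Snap25*, *Syn3*, *Syngr3*, *Syt4*, *Syt7* and *Vamp2* had none. The GC box stood in 23 of the 42 windows (54.8%) and in 33% of all 32536 windows of this length. The cAMP response element stood in the *Syn1* window alone among these genes and in 1.6% of all windows, and the TATA box in 3 windows (7.1%) against 12.3% of all. A match is a description of the letters in these windows and names no regulator.

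Levels are given as CPM (the reads of a gene scaled to a common total), rescaled further between mice, as described with the processing. Per kilobase of transcript, *Snap25*, the SNARE protein of the plasma membrane, was the most abundant in *APOE*-TR mice at 1153 CPM per kb, followed by its vesicle partner *Vamp2* at 752 CPM per kb. *Slc17a7* (388 CPM per kb), *Syp* (386), *Syt1* (291), *Cplx1* (256) and *Cplx2* (236) came next. At the low end stood *Sv2c* (1.33 CPM per kb), *Unc13b* (2.28), *Syt2* (2.79) and *Slc17a6* (3.92). The fast sensor of cortical neurons, *Syt1*, was thus far above *Syt2*, its counterpart in inhibitory and subcortical neurons. In B6 mice *Snap25* (1387 CPM per kb) and *Vamp2* (1120) also led, and *Unc13b* (0.969) and *Syn3* (1.49) were lowest.

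The median of their within-group SDs was 0.28 on the log2 scale, against 0.31 over the 11097 genes tested in all mice. *Syp*, the vesicle protein most used to count synapses, was the steadiest at 0.13, and *Doc2b*, a high affinity calcium sensor, the most variable at 0.74. Depth was estimated at 17.8 to 31.3 Mreads (megareads) in *APOE*-TR mice and 2.08 to 24.4 Mreads in B6 mice. The least covered gene was *Sv2c*, with 13 reads in its lowest *APOE*-TR mouse, then *Syt2* with 78, and in B6 mice *Syn3* was estimated at only 23.

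A pair of APOE3 female controls stood apart, and they sit in the group on which several results below rest. In control 61 and the mouse whose column reads F6, mitochondrial transcripts made up 21.8% and 18.3% of the listed CPM. The range was 7.03 to 10.9% in 27 other *APOE*-TR mice, with APOE3 female controls 52 (12.5%) and 63 (13.7%) and APOE3 female nPM mouse 55 (14.9%) in between. Gene levels in control 61 and F6 fell with transcript GC content, by 0.73 and 0.53 on the log2 scale per 10% GC, where the 27 mice ran from -0.19 to 0.13. Per doubling of transcript length the log2 slope was -0.68 and -0.50 in them, and -0.15, -0.20 and -0.29 in controls 52 and 63 and nPM mouse 55. The 27 mice ran from -0.13 to 0.08. In control 61 and F6 the median of the 42 genes lay 0.56 and 0.50 below the median of the *APOE*-TR mice. The F6 column matched the title of no single mouse of that group and was used as a control of the group without a number. Counts and the leading genes that rest on APOE3 female controls are therefore also given without both.

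Another pair stood apart among the B6 male controls. In controls 0 and 2 the mean log2 level of 8 markers of excitatory cortical neurons was 3.41 and 4.44, against 5.87 to 6.86 in the other 14 B6 mice. *Tbr1*, which marks deep cortical layers, was at 4.37 and 21.1 CPM there and at 60.7 to 157 CPM in the others, and *Fezf2* at 0.0437 and 5.46 CPM against 7.62 to 37.1. *Prkcd*, abundant in thalamus, was at 32.9 and 31.6 CPM against 1.04 to 12.2. The labels call both samples cortex, yet *Fezf2* was nearly absent in control 0. For other genes of the thalamic list, control 6 stood with the pair. *Tcf7l2* was at 8.38, 7.66 and 7.23 CPM in controls 0, 2 and 6 and at most 2.975 CPM in the rest. *Calb2* was at 35, 31 and 33 CPM there and at most 14.9 CPM in the rest. Control 6 also had the lowest excitatory mean of the other 14, 5.87, and only 2.08 Mreads. In such bulk tissue fewer cells of a type and less RNA per cell cannot be told apart.

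The comparisons asked first whether nPM changed these transcripts in all mice together, with sex and genotype as further terms. Differences are on the log2(CPM + 0.5) scale with their standard errors, and the thresholds were those of the study, an unadjusted limma value under 0.005 (the 0.005 level below, with a 0.05 level beside it) or a false discovery rate of 5% with Benjamini-Hochberg adjustment over all genes of each fit. Values printed as adjusted p are limma's after that adjustment, and a difference can pass the 0.005 level with a high adjusted p. Each p-value sets a difference against the spread between the mice of its own fit, here all 48. None of the 42 genes passed the 0.005 level with limma, while 1.48% of 11097 genes did. At the 0.05 level, 10 were higher and 1 was lower, and 8.38% of all genes were higher at that level. The median difference of the 42 genes was 0.10 against 0.01 over all genes, and 35 were higher.

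The vesicle protein *Syngr1* had the smallest p in that fit (0.24 ± 0.09, adjusted p = 0.301 by limma), followed by the calcium sensor *Syt7* (0.32 ± 0.12, adjusted p = 0.301) and the active zone scaffold *Bsn* (0.45 ± 0.18, adjusted p = 0.302). Of the other active zone genes the priming factors *Unc13a* (0.28 ± 0.13) and *Unc13b* (0.32 ± 0.14) were among the 10. The 1 lower gene was *Slc17a6* (-0.34 ± 0.17, adjusted p = 0.345), and *Vamp1* (-0.11) and *Syt4* (-0.03) came nearest after it. Without APOE3 female controls 61 and F6 the count at the 0.05 level fell from 10 higher to 3, with a median of 0.05. Without B6 male controls 0 and 2 it was also 3, with a median of 0.08. With sample quality weights it was 3 with a median of 0.02, and with levels adjusted for transcript GC content and length it was 1 with a median of 0.06. In those 4 fits 0.342%, 1.09%, 0.748% and 0.658% of all genes passed the 0.005 level, and none of the 42 did by limma. The median over all genes ran from -0.001 to 0.004 in them, and the share of all genes at the 0.05 level was not counted.

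**Figure D1:**
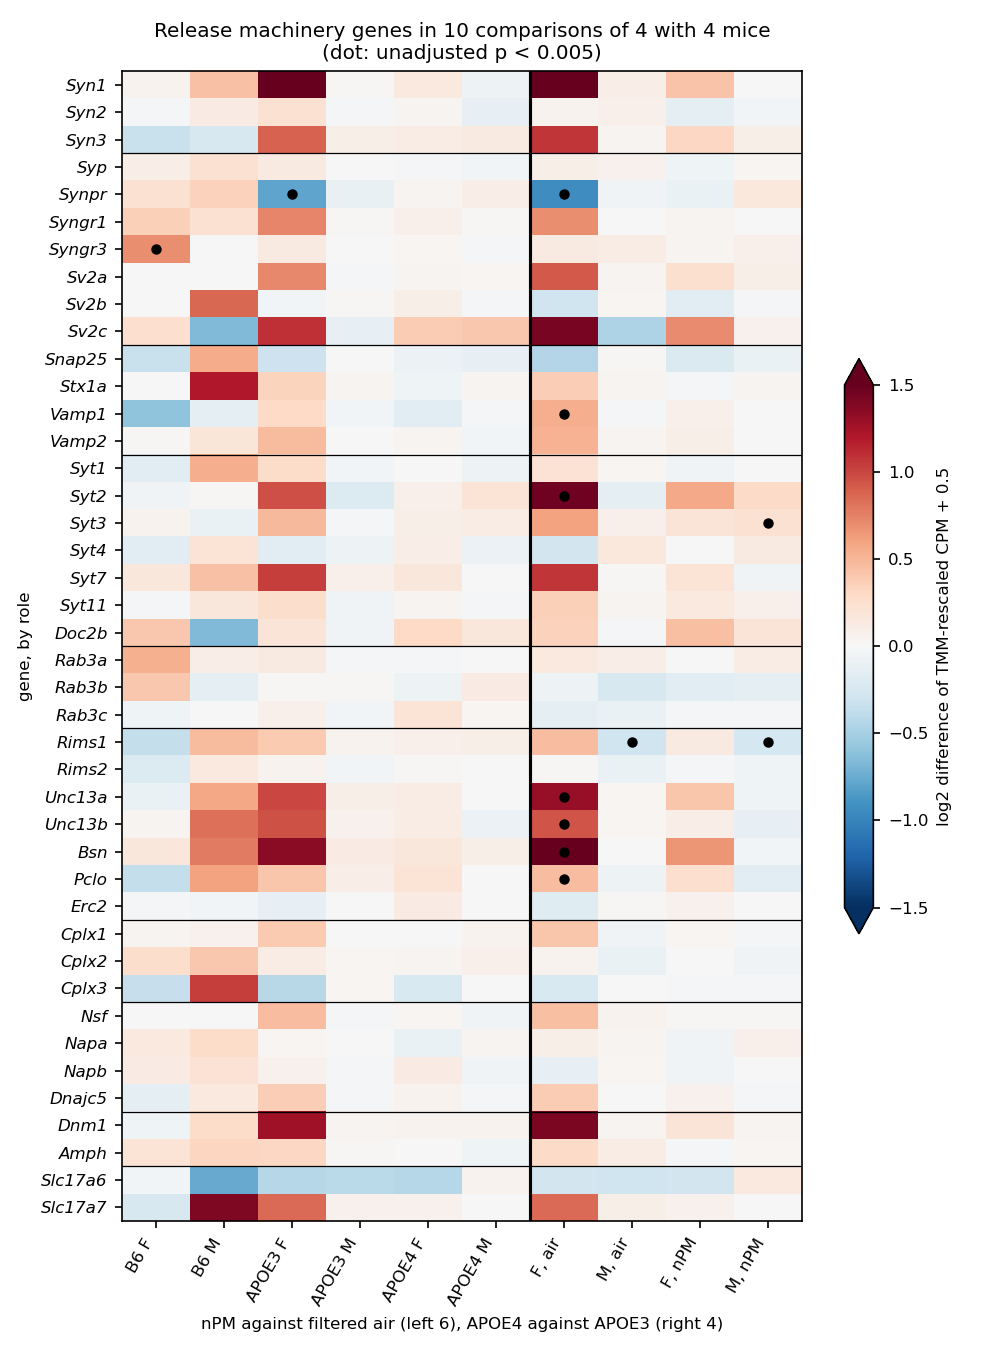
Each row is one of the 42 genes, grouped by role, and each column a comparison of 4 with 4 mice; color gives the log2 difference of rescaled CPM + 0.5, cut at 1.5 in either direction, and a dot marks a gene past the 0.005 level. The columns of APOE3 females under nPM and of females in filtered air for APOE4 hold most of the strong color, with medians of 0.30 and 0.37, and they share the same 4 APOE3 control mice.

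Among the 6 groups taken singly, the shift was widest in APOE3 females. There 17 genes were higher and 1 lower at the 0.05 level, where 11% of all genes were higher, and the median was 0.30 against -0.01 over all genes. Mitochondrial transcripts made up 12.5 to 21.8% in these controls and 7.67 to 14.9% under nPM. The mean log2 level of excitatory neuron markers ran from 5.87 to 6.64 in controls and was at least 6.50 in each nPM mouse, with 4 of 8 higher at the 0.05 level. That of astrocyte markers ran from 7.96 to 8.30 and from 7.58 to 8.09, with 3 of 8 lower at that level. The share of all genes lower at that level is not given. The part of these markers and of mitochondrial transcripts in the differences below was not tested. At the 0.005 level only *Synpr* passed, 1 of 42, beside 0.665% of 16394 genes. *Synpr* encodes synaptoporin, a relative of synaptophysin found at selected terminals such as mossy fibers. It measured 159, 225, 155 and 182 CPM in controls 52, 61, 63 and F6, and 143, 79.4, 83.7 and 116 CPM in nPM mice 55, 59, 67 and 70. The groups did not overlap, and the fall was -0.79 ± 0.21 (adjusted p = 0.229 by limma), to 0.577 of the control level. Without controls 61 and F6 it was -0.61 (adjusted p = 0.905) and no longer passed. The call was also lost without any 1 of controls 52, 61, 63 and F6 or nPM mice 59, 67 and 70, with differences of -0.67 to -0.86, and with edgeR (-0.77).

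*Syn1*, the synapsin that ties vesicles to actin, had the largest rise in value. It measured 216, 25.8, 244 and 44.2 CPM in controls 52, 61, 63 and F6, and 142, 376, 382 and 281 CPM in the nPM mice. Controls 61 and F6 were the low ones by far, nPM mouse 55 fell below the other 2 controls, and the difference of 1.63 did not pass the 0.05 level. *Bsn* went from 140, 55.4, 175 and 58 CPM to 97.7, 349, 390 and 257 CPM (1.36 ± 0.52, adjusted p = 0.229). The groups overlapped through nPM mouse 55, which also carried the highest mitochondrial share of the exposed *APOE*-TR mice.

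*Unc13b*, a priming factor of the Munc13 family, had the smallest p among the genes that were higher. It measured 20.2, 9.65, 22.0 and 15.2 CPM in controls and 23.9, 36.7, 39.5 and 28.1 CPM under nPM, without overlap (0.95 ± 0.27, adjusted p = 0.229). *Amph*, which recruits dynamin to endocytic necks, went from 111, 95.5, 114 and 111 CPM to 131, 135, 139 and 126 CPM, also without overlap (0.31 ± 0.09, adjusted p = 0.229). *Stx1a*, the syntaxin of the plasma membrane, went from 153, 134, 177 and 157 CPM to 172, 202, 223 and 188 CPM (0.34 ± 0.12, adjusted p = 0.229). Control 61 was the lowest mouse for all 3 genes. Without controls 61 and F6 the differences were 0.56 for *Unc13b*, 0.25 for *Amph*, 0.25 for *Stx1a* and 0.63 for *Bsn*.

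By role in APOE3 females, 4 of 7 active zone genes were higher at the 0.05 level, 2 of 3 synapsins, 3 of 7 synaptotagmin and Doc2 genes, 2 of 4 SNARE genes, 2 of 7 vesicle membrane genes, 1 of 4 chaperones, *Slc17a7*, both endocytic genes and none of the Rab3 GTPases or complexins. *Snap25* went the other way in value, from 2259, 4199, 2750 and 3458 CPM to 2975, 2208, 2332 and 2483 CPM, and controls 61 and F6 were its highest mice. *Syp* moved little, from 974 to 1037 CPM in controls to 1070 to 1144 CPM under nPM. *Cplx3* (-0.42) and *Slc17a6* (-0.43) were the other genes nearest the threshold among the lower ones. Leaving out controls 61 and F6 left 3 genes higher and 2 lower at the 0.05 level, with a median of 0.13, and *Doc2b* (-0.94, adjusted p = 0.82 by limma) was then the 1 gene past the 0.005 level, where 0.522% of all genes passed. The share of all genes at the 0.05 level was not counted in that fit.

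**Figure D2:**
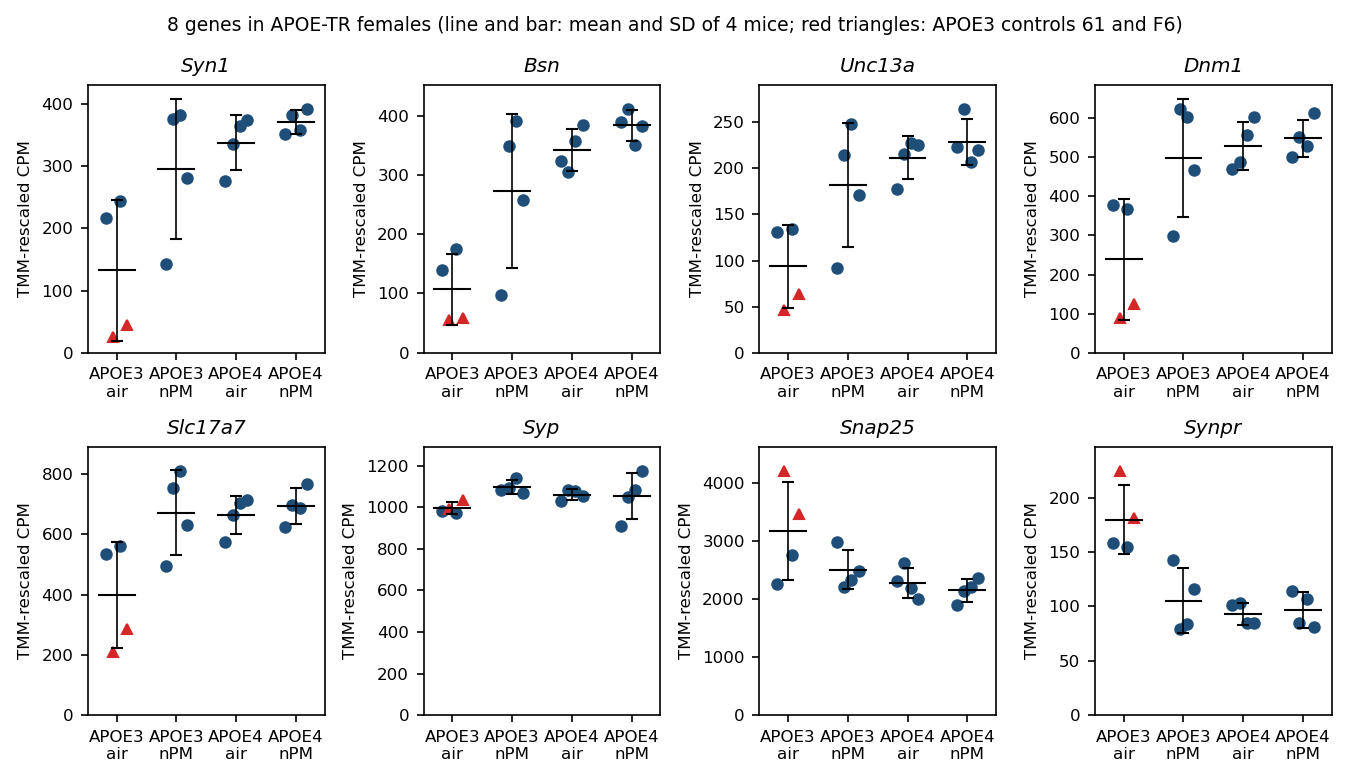
Rescaled CPM of 8 genes in each of 16 *APOE*-TR females, by allele and exposure, with the mean and SD of 4 mice per group; red triangles are APOE3 controls 61 and F6. For *Syn1* both triangles lie under 50 CPM while the other 14 females lie between 142 and 392 CPM, whereas for *Syp* all 16 lie between 913 and 1175 CPM.

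In B6 males no gene passed the 0.005 level with limma (0.240% of 15430 genes did), and 7 were higher at the 0.05 level, where 2.24% of all genes were. The median was 0.21 against 0.00 over all genes. *Bsn* (0.78 ± 0.28, adjusted p = 1), *Unc13a* (0.58 ± 0.22, adjusted p = 1) and *Slc17a7* (1.40 ± 0.55, adjusted p = 1) had the smallest p. *Slc17a7*, the transporter of cortical glutamatergic terminals, measured 51.7, 129, 639 and 326 CPM in controls 0, 2, 3 and 6 and 602, 397, 517 and 550 CPM under nPM. *Stx1a* measured 17.0, 18.1, 110 and 63.5 CPM in the same controls and 95.1, 66, 111 and 90.4 CPM under nPM. Controls 0 and 2 were the lowest for both genes, and control 3 was as high as the exposed mice.

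Those were also the samples in which cortical neuron markers were low. In B6 males 7 of 7 tested markers of excitatory cortical neurons were higher under nPM at the 0.05 level, with a median of 1.60, and their mean log2 level ran from 3.41 to 6.81 in controls and from 6.05 to 6.86 under nPM. Without controls 0 and 2, 0 of the 42 genes passed the 0.05 level with limma and their median was 0.05. Control 6, where *Tcf7l2* and *Calb2* were also high, stayed in that fit. *Syp* overlapped between the groups, with control 0 lowest, at 744, 970, 1092 and 912 CPM in controls and 1103, 1188, 1140 and 921 CPM under nPM. Lower in value were *Slc17a6* (-0.75), *Doc2b* (-0.66) and *Sv2c* (-0.66), 3 genes with known expression in subcortical neurons, and none passed the 0.05 level.

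**Figure D3:**
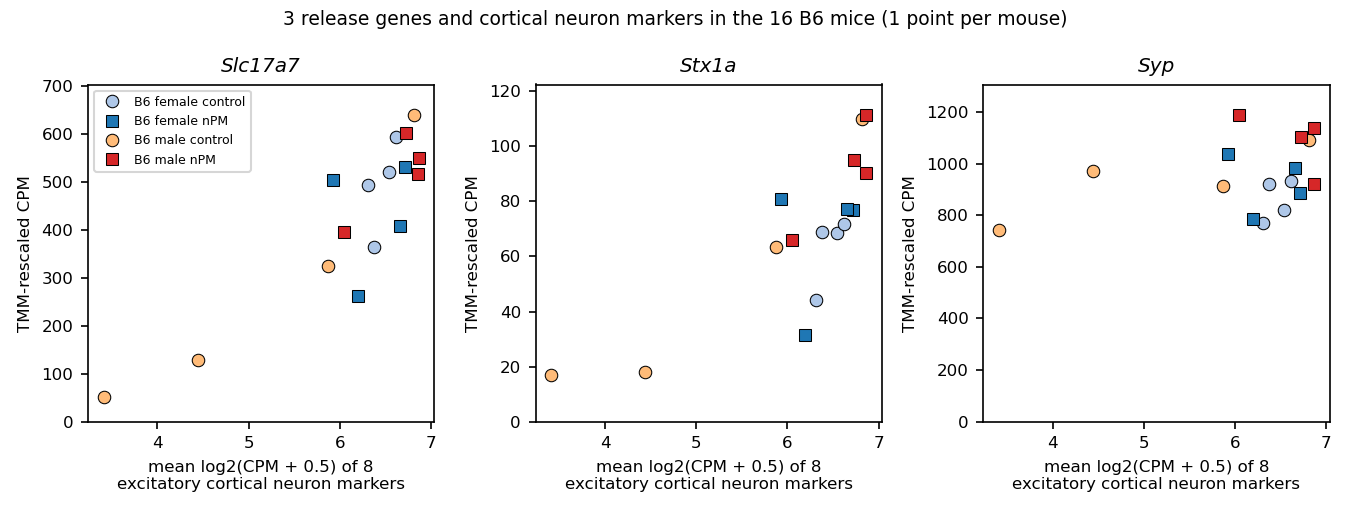
Rescaled CPM of *Slc17a7*, *Stx1a* and *Syp* against the mean log2 level of 8 excitatory cortical neuron markers in the 16 B6 mice, 1 point per mouse, colored by sex and exposure. Male controls 0 and 2 lie alone at the left, at 3.41 and 4.44, low for *Slc17a7* and *Stx1a* and within the range of the others or just below it for *Syp*.

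In B6 females *Syngr3* was the 1 gene of 42 that passed the 0.005 level, beside 1.20% of 14811 genes. *Syngr3*, a synaptogyrin of the vesicle membrane, measured 63.5, 67.6, 59.7 and 58.3 CPM in controls and 80.0, 113, 124 and 92.2 CPM under nPM. Every exposed female was above every control, a rise of 0.69 ± 0.16 (adjusted p = 0.376 by limma), or 1.62-fold. It passed with each mouse left out in turn, but with gene levels adjusted for transcript GC content and length it was 0.44 (adjusted p = 0.665). *Rab3a*, the main Rab of the vesicle, was next, with 126, 92.9, 99.5 and 109 CPM against 116, 233, 126 and 165 CPM (0.54 ± 0.20, adjusted p = 0.403). The remaining genes were split, 20 higher and 22 lower in all, with a median of -0.001. *Pclo* (-0.36), *Snap25* (-0.33) and *Rims1* (-0.36) were nearest the threshold among those lower.

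APOE3 males, APOE4 females and APOE4 males had no gene past the 0.005 level with limma, where 0.154%, 0.272% and 0.178% of all genes passed. In APOE3 males 21 genes were higher and 21 lower with a median of 0.00, and 1 passed the 0.05 level, *Slc17a6* (-0.40 ± 0.16, adjusted p = 1). APOE4 males had 0 at the 0.05 level and a median of 0.00. In APOE4 females 3 were higher at the 0.05 level, where 2.92% of all genes were, and 1 lower. The 3 were the active zone scaffolds *Pclo* (0.21 ± 0.07, adjusted p = 0.754) and *Erc2* (0.12 ± 0.05) and the vesicle GTPase *Rab3c* (0.20 ± 0.09), and the lower one was *Slc17a6* (-0.43 ± 0.17, adjusted p = 0.754).

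*Slc17a6* was lower at the 0.05 level in APOE3 males and in APOE4 females, which share no mice. In APOE3 males it measured 16.5, 11.5, 19.8 and 17.3 CPM in controls and 10.2, 10.4, 15.1 and 12.8 CPM under nPM. In APOE4 females it measured 25.3, 17.4, 19.0 and 15.1 CPM in controls and 10.2, 14.6, 14.7 and 16.8 CPM under nPM. The groups overlapped in both. In APOE4 males it measured 8.92, 15.3, 21.1 and 9.34 CPM against 13.2, 17.2, 11.1 and 12.3 CPM, a difference of 0.05. Thalamic markers, 5 or 6 of which could be tested per group, had medians of -0.24 in APOE3 males and -0.12 in APOE4 females, and their part in the *Slc17a6* values was not tested.

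Across the 6 groups, 5 genes were higher under nPM every time, namely *Bsn*, *Cplx1*, *Cplx2*, *Syngr1* and *Syt7*, and 0 were lower every time. Among all genes 5.24% were higher and 4.36% lower in all 6. The largest of these differences by group lay in APOE3 females and B6 males, whose controls held the mice that stood apart.

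The second set of comparisons asked how APOE4 differed from APOE3 at each exposure. In females breathing filtered air it gave the largest counts for these genes. At the 0.005 level, 6 were higher and 1 lower, where 5.86% of 16419 genes passed in either direction and 2.59% were higher. At the 0.05 level, 20 were higher, where 20.8% of all genes were, and 2 lower. The median was 0.37 against -0.01 over all genes. At a false discovery rate of 5%, 1 gene passed by limma with Benjamini-Hochberg adjustment, beside 0.231% of all genes. These comparisons use the same 4 APOE3 female controls as the nPM comparison above, so both sets of values carry the levels of controls 61 and F6.

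The gene past 5% was *Synpr*, at 101, 103, 84.6 and 85.0 CPM in APOE4 controls 7, 21, 26 and 38 against 155 to 225 CPM in the APOE3 controls (-0.93 ± 0.14, adjusted p = 0.0463 by limma). All 4 APOE3 controls were above every other *APOE*-TR female, and here controls 52 and 63 stood with 61 and F6. Without the latter pair the difference was -0.75 (adjusted p = 0.0246 by limma). In APOE3 males *Synpr* was at 72.7 to 94.6 CPM in controls.

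*Bsn* had the largest rise among the genes past the 0.005 level. APOE4 controls measured 324, 305, 357 and 384 CPM against 140, 55.4, 175 and 58 CPM, a 3.61-fold difference (1.85 ± 0.37, adjusted p = 0.0765 by limma). The groups lay far apart with or without controls 61 and F6, and without them *Bsn* was 1.12 higher (adjusted p = 0.0108 by limma). *Unc13a*, the main Munc13 of glutamatergic terminals, measured 178, 215, 228 and 226 CPM against 131, 46.7, 134 and 64.0 CPM (1.30 ± 0.33, adjusted p = 0.0765), and 0.67 higher without the pair (adjusted p = 0.0336). *Unc13a* lost its call without any 1 of APOE4 controls 7, 21, 26 and 38 or control F6 (1.17 to 1.38) and with edgeR (1.17). In the controls of the males, *Bsn* measured 384 to 422 CPM with APOE3 and 380 to 419 CPM with APOE4, and the alleles overlapped.

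*Vamp1*, a vesicle SNARE of fast-firing neurons, was higher with APOE4, and controls 61 and F6 were not low for it. It measured 160, 178, 196 and 170 CPM in APOE4 and 117, 129, 118 and 119 CPM in APOE3 controls 52, 61, 63 and F6, with control 61 the highest of its group (0.54 ± 0.09, adjusted p = 0.0765). *Pclo*, the partner of bassoon, measured 185, 183, 218 and 207 CPM against 148, 135, 155 and 136 CPM (0.46 ± 0.10, adjusted p = 0.0765). *Syt2* measured 19.7, 11.3, 20.4 and 18.8 CPM against 10.1, 3.48, 8.60 and 3.83 CPM (1.46 ± 0.35, adjusted p = 0.0765), and *Unc13b* was 0.94 ± 0.25 higher (adjusted p = 0.0765). For all 4 genes each APOE4 control was above each APOE3 control, but they were named for a small p in these same mice. Adjusted for GC content and length, *Pclo* changed sign, to -0.31, and *Unc13b* was 0.33 and no longer passed. *Unc13b* also lost its call without any 1 of APOE4 controls 7, 21, 26 and 38 or control F6 (0.86 to 1.03) and with edgeR (0.91). *Syt2* lost it without any 1 of APOE4 controls 7, 26 and 38 or controls 61 and F6 (1.24 to 1.42), and *Pclo* without APOE4 control 26 or 38 (0.41 and 0.44). Without controls 61 and F6 together, *Pclo* was 0.38, *Syt2* 0.84 and *Unc13b* 0.55 higher.

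Of the genes that did not pass, *Syn1* had the largest difference, 1.92 ± 0.68 (adjusted p = 0.0828), from 216, 25.8, 244 and 44.2 CPM with APOE3 to 276, 336, 364 and 373 CPM with APOE4. Controls 52 and 63 were close to the lowest APOE4 mouse, and controls 61 and F6 were several-fold lower. *Dnm1*, the dynamin that cuts vesicles from the membrane, followed the same order with 379, 88.4, 367 and 124 CPM against 470, 487, 557 and 602 CPM (1.41 ± 0.46, adjusted p = 0.0773). *Sv2a* measured 237, 103, 197 and 116 CPM against 271, 270, 318 and 311 CPM (0.92 ± 0.26, adjusted p = 0.0765). *Sv2a* is the vesicle protein that binds levetiracetam. Without controls 61 and F6 the differences were 0.54 for *Syn1*, 0.50 for *Dnm1* and 0.43 for *Sv2a*.

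Without controls 61 and F6 the count in females rose to 10 higher and 3 lower at the 0.005 level, where 6.69% of all genes passed, while the median fell to 0.12. Then 4 genes passed the 5% rate, *Bsn*, *Synpr*, *Vamp1* and *Unc13a*. Among all genes 341 of 16716 passed it in that fit, against 38 of 16419 in the reported fit. The 3 lower genes were *Synpr*, *Doc2b* (-0.79) and *Rab3c* (-0.50). The remaining controls 52 and 63 also had mitochondrial shares above the 27 other mice, and their part in these differences was not tested. Among cell type markers, 6 of 8 excitatory neuron markers were higher at the 0.05 level in the fit of all 8 mice (median 0.45), where 20.8% of all genes were. Of 8 astrocyte markers, 5 were lower at that level (median -0.39). The share of all genes lower at that level is not given, so this count cannot be set beside it. The mean log2 level of the excitatory markers ran from 5.87 to 6.64 in APOE3 and from 6.68 to 6.86 in APOE4 controls.

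In males breathing filtered air the alleles hardly differed for these genes, with 1 exception. The median was 0.02 against 0.00 over all genes, and 1 of 42 genes passed the 0.005 level, where 1.36% of 16866 did. That gene was *Rims1*, the RIM protein that links vesicles to Munc13 and to calcium channels. It measured 72.8, 66.1, 73.2 and 70.6 CPM in APOE3 controls 51, 55, 63 and 73, and 54.9, 60.4, 62.1 and 53.3 CPM in APOE4 controls 3, 21, 32 and 91. The groups did not overlap, and the mean fell from 70.7 ± 3.24 to 57.7 ± 4.23 CPM (SD, n = 4 each), a difference of -0.29 ± 0.06 (adjusted p = 0.112 by limma). It passed the 0.005 level with each of the 8 mice left out in turn.

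*Rims1* was lower with APOE4 in males under nPM as well, in a comparison that shares no mouse with the first. There APOE3 mice measured 68.4, 70.5, 83.7 and 71.1 CPM and APOE4 mice 62.5, 65.1, 58 and 58.8 CPM, again without overlap (-0.26 ± 0.07, adjusted p = 0.176 by limma). Under nPM it no longer passed without APOE4 mouse 65 or 93 (-0.24 each). Adjusted for GC content and length the differences were -0.28 (adjusted p = 0.00898 by limma) in air and -0.23 (adjusted p = 0.203) under nPM. With the variance shared over all groups of the table, they did not pass the 0.005 or the 0.05 level. Its relative *Rims2* had overlapping groups in both, with -0.06 ± 0.06 under nPM (adjusted p = 0.785).

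In females *Rims1* was lower in level altogether and was not lower with APOE4. It measured 41.7, 16.2, 42.4 and 28.4 CPM in APOE3 controls and 39.4, 51.3, 39.5 and 37.3 CPM in APOE4 controls, and 34.4 to 43.5 CPM against 41.9 to 46.3 CPM under nPM. Every *APOE*-TR male, at 53.3 to 83.7 CPM, was above every *APOE*-TR female. The sexes also differed in other traits of the libraries. The mean log2 level of endothelial markers was 2.1 to 3.1 in these females and 3.5 to 4.2 in these males. The log2 change of gene levels per doubling of transcript length was -0.68 to 0.006 in females and 0.020 to 0.084 in males. The part of these traits in the *Rims1* levels was not tested.

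Under nPM in males, 1 further gene passed the 0.005 level, so that 1 was higher and 1 lower, where 1.95% of 16861 genes passed. *Syt3*, a synaptotagmin of high calcium affinity, measured 27.9, 24.8, 25.9 and 27.5 CPM with APOE3 and 29.9, 34.3, 28.9 and 31.4 CPM with APOE4, without overlap (0.22 ± 0.06, adjusted p = 0.235 by limma). The *Syt3* call was lost without any 1 of APOE3 mice 56, 58 and 76 or APOE4 mice 23, 33 and 93 (0.18 to 0.24), without rescaling (0.22), with the shared variance (0.22) and after adjustment for GC content and length (0.18). In air its groups overlapped, at 21.5 to 31.2 and 23.9 to 33.8 CPM. *Rab3b*, a Rab3 form with restricted expression, missed the threshold in air (-0.24 ± 0.07, adjusted p = 0.367), with 33.2 to 36.1 CPM for APOE3 and 25.7 to 31.7 CPM for APOE4, and was -0.13 under nPM with overlapping groups. *Rab3a* under nPM (0.11 ± 0.04, adjusted p = 0.405) and *Pclo* (-0.16 ± 0.06, adjusted p = 0.477) were the only others at the 0.05 level.

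**Figure D4:**
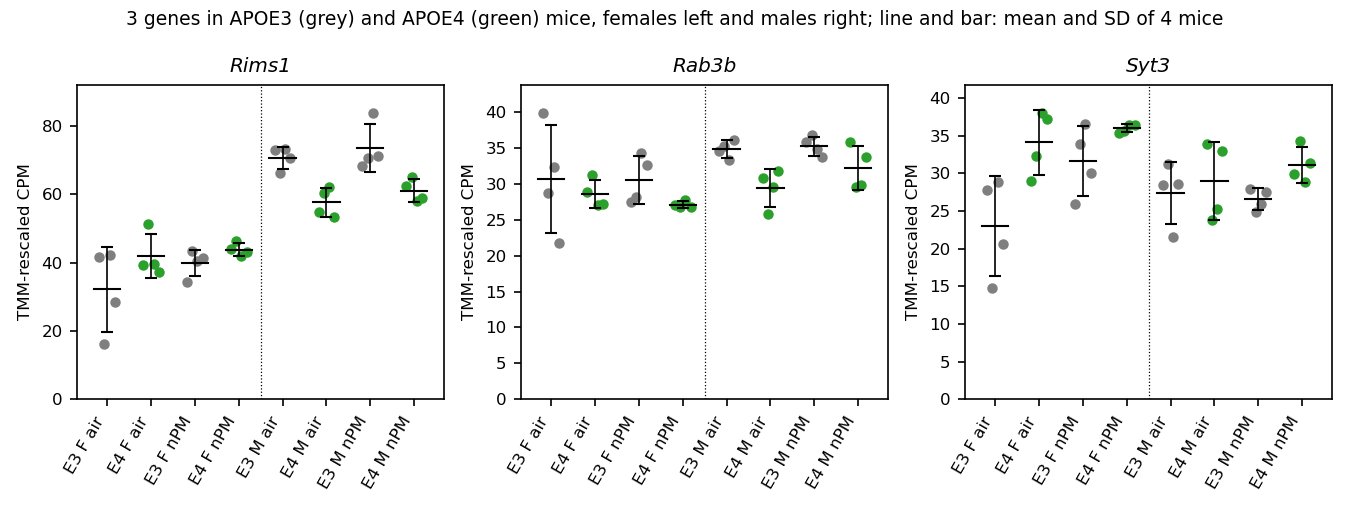
Rescaled CPM of *Rims1*, *Rab3b* and *Syt3* in each *APOE*-TR mouse, females left and males right of the dotted line, APOE3 in grey and APOE4 in green, with the mean and SD of 4 mice. The *Rims1* groups of the males are apart in air (66.1 to 73.2 against 53.3 to 62.1 CPM) and under nPM (68.4 to 83.7 against 58 to 65.1 CPM).

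In females under nPM none of the 42 genes passed the 0.005 level with limma, where 1.14% of 16509 genes did. At the 0.05 level *Syt2* (0.57 ± 0.23, adjusted p = 0.531) and *Sv2c* (0.71 ± 0.32, adjusted p = 0.531) were higher and 0 were lower, and the median was 0.04. *Bsn* measured 97.7 to 390 CPM with APOE3 and 350 to 411 CPM with APOE4. *Synpr* measured 79.4 to 143 CPM with APOE3 and 80.9 to 114 CPM with APOE4, and both pairs of groups overlapped.

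In all mice together, with sex and exposure as terms, *Sv2a* was the 1 gene past the 0.005 level, where 1.88% of 11097 genes passed (0.32 ± 0.10, adjusted p = 0.228 by limma). Another 8 genes were higher at the 0.05 level, 9 in all, where 9.86% of all genes were, *Bsn* (0.62 ± 0.22) and *Syn1* (0.61 ± 0.22) among them, and 0 were lower. The *Sv2a* difference was uneven by sex. In males its groups lay at 344 to 365 CPM with APOE3 and 349 to 371 CPM with APOE4 in air, and in females at 103 to 237 CPM against 270 to 318 CPM. Without controls 61 and F6 it was 0.17 (adjusted p = 1), and 0 genes passed. *Sv2a* also did not pass in *APOE*-TR mice only (0.32), with sample quality weights (0.09) or adjusted for GC content and length (0.16).

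By direction alone, 10 genes were higher with APOE4 in all 4 comparisons, namely *Dnm1*, *Nsf*, *Slc17a7*, *Sv2a*, *Syn1*, *Syn3*, *Syngr1*, *Syngr3*, *Syt3* and *Syt11*. The 2 that were lower each time were the GTPases *Rab3b* and *Rab3c*. Among all genes 13.1% were higher and 12% lower in all 4.

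The last comparisons asked whether the response to nPM itself differed by sex or allele. Between females and males over all genotypes *Syngr3* was the 1 gene past the 0.005 level, with a response 0.30 ± 0.09 higher in females (adjusted p = 0.219 by limma), where 1.97% of 11097 genes passed. In *APOE*-TR females *Syngr3* lay at 98.6 to 134 CPM over all groups. Its difference did not pass without controls 61 and F6 (0.26, adjusted p = 0.828). *Snap25* (-0.38, adjusted p = 0.3) and *Cplx3* (-0.69, adjusted p = 0.352) had lower responses in females at the 0.05 level.

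Between the alleles over both sexes, *Synpr* passed, its response being 0.52 ± 0.16 higher with APOE4 (adjusted p = 0.443 by limma), where 0.726% of 15972 genes passed. At the 0.05 level, 7 genes had a lower response with APOE4, where 5.74% of all genes did, and the median was -0.15. In females alone 3 passed the 0.005 level, where 3.76% of all genes did. *Synpr* had a higher response with APOE4 (0.83 ± 0.23, adjusted p = 0.126) and *Unc13b* (-0.84 ± 0.24, adjusted p = 0.126) and *Amph* (-0.30 ± 0.10, adjusted p = 0.126) lower ones. At the 0.05 level, 19 were lower, where 16.5% of all genes were.

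In APOE3 mice the response of females was larger than that of males for 4 genes at the 0.005 level, where 5.12% of all genes passed. These were *Unc13b* (0.89 ± 0.24), *Syt1* (0.32 ± 0.10), *Amph* (0.29 ± 0.10) and *Syngr1* (0.72 ± 0.23), each with an adjusted p of 0.0921 by limma. At the 0.05 level, 19 were higher in females, where 18.3% of all genes were, and the median was 0.31. *Syt1*, the fast calcium sensor, measured 1165, 1163, 1272 and 1151 CPM in female controls and 1378, 1437, 1502 and 1428 CPM in exposed females, without overlap. In APOE3 males it measured 1364 to 1529 CPM in controls and 1305 to 1494 CPM under nPM. All of these contrasts use the 4 APOE3 female controls, and without 61 and F6 none of the 4 genes passed the 0.005 level and the female contrast of the alleles had 1 gene, *Doc2b* (1.24, adjusted p = 0.433), which was not among the 3. Adjusted for GC content and length, the contrast of the sexes in APOE3 was 0.39 for *Unc13b*, 0.20 for *Syt1*, 0.17 for *Amph* and 0.31 for *Syngr1*. None of these then passed the 0.005 level. Without rescaling, *Syt1* (0.26) and *Amph* (0.24) did not pass. *Syt1* also did not pass without the filter on low values (0.32) or with sample quality weights (0.22).

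The genes differed in transcript composition, and those richer in GC had the larger differences in several comparisons. Transcript GC content ran from 40.6% (*Synpr*) to 60.4% (*Syt7*), with a median of 52% against 50.5% over all genes. The correlation of GC content with the log2 difference was 0.563 for nPM in APOE3 females and 0.567 for APOE4 in females under air over the 42 genes, and 0.33 and 0.345 over all genes. These are descriptions over genes measured in the same libraries. The 21 genes richest in GC had a median difference of 0.47 and the other 21 one of 0.26 in the first comparison, and 0.53 and 0.22 in the second. In comparisons without APOE3 female controls the correlation ran from 0.067 for nPM in APOE4 females to 0.448 for nPM in APOE3 males, with 0.35 for APOE4 in females under nPM and 0.326 for APOE4 in males under air.

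**Figure D5:**
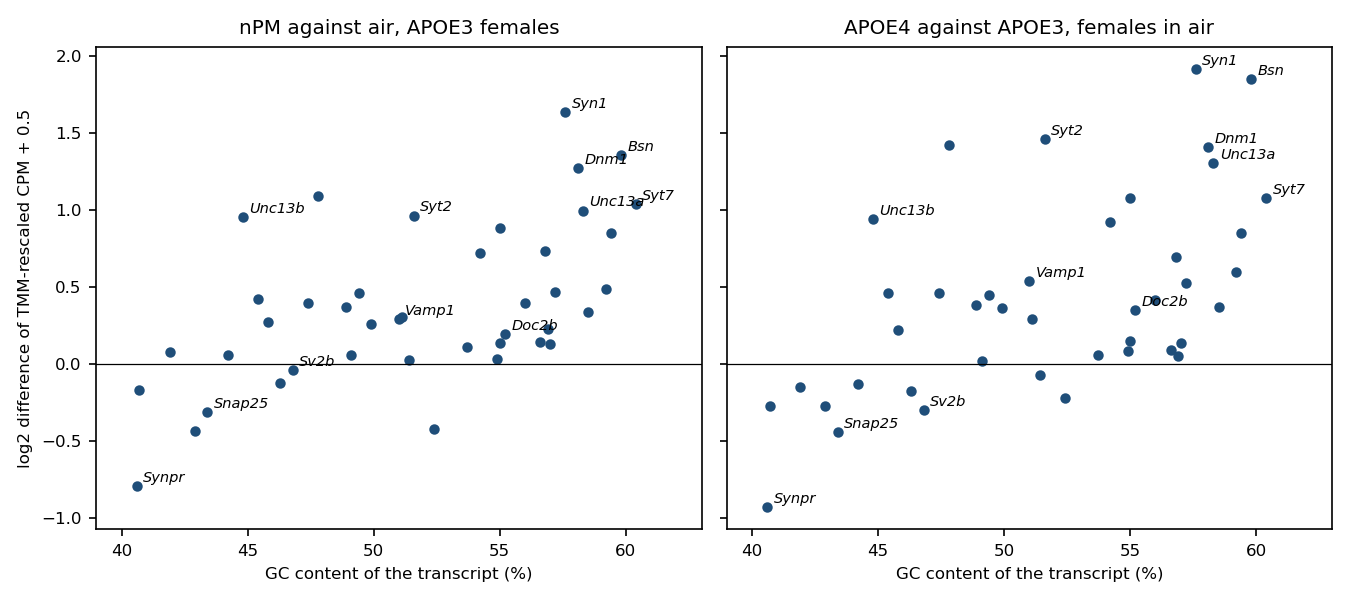
Log2 difference of each of the 42 genes against the GC content of its transcript with the longest coding sequence, for nPM in APOE3 females (left) and for APOE4 in females under filtered air (right). *Synpr* is lowest on both axes, *Syn1*, *Bsn*, *Dnm1* and *Unc13a* lie at 57.6 to 59.8% GC with differences of 1.00 to 1.92, and *Unc13b* at 44.8% lies well above its neighbors.

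After adjustment for GC content and length in each mouse, 5 genes were higher and 3 lower with APOE4 in females under air at the 0.005 level, where 7.52% of all genes passed, with a median of 0.12. *Vamp1* (0.79), *Unc13a* (0.59), *Syt2* (0.90), *Bsn* (0.63) and *Sv2a* (0.47) were higher, and *Synpr* (-0.64), *Erc2* (-0.46) and *Cplx2* (-0.43) lower. For nPM in APOE3 females *Synpr* was again the 1 gene (-0.56, adjusted p = 0.236), where 1.38% of all genes passed, with a median of 0.16.

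Beyond the 42 genes, a list of 61 further genes of vesicle release and recycling was read in the same fits. Under nPM in all mice 57 could be tested, 0 passed the 0.005 level with limma (1.48% of all genes did), and 10 were higher (8.38% of all genes were) and 1 lower at the 0.05 level, with a median of 0.05. The clathrin adaptor *Ap2a1* (0.34 ± 0.13), the dynamin *Dnm2* (0.29 ± 0.11) and *Apba2* (0.22 ± 0.08) had the smallest p. In APOE3 females under nPM 14 of 60 were higher, beside 11% of all genes, and 2 lower at the 0.05 level, with a median of 0.17. With APOE4 in females under air 1 of 60 was higher and 2 were lower at the 0.005 level, beside 5.86% of all genes in either direction, with a median of 0.15. *Prrt2*, a presynaptic partner of the SNAREs, was among them (0.84 ± 0.18), as was *Rab27b* (-0.71 ± 0.14). In males under air 0 of 60 passed the 0.005 level with limma (1.36% of all genes did), 1 passed the 0.05 level, and the median was 0.03.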

How the data were processed

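RNA-seq of cerebral cortex from 48 mice was analysed, 4 in each of 12 groups. According to the study's methods and the submitters' processing notes, libraries were made with a stranded mRNA kit, and reads were aligned to mm10 (GRCm38) with TopHat2 2.0.8b in Partek and kept where they mapped uniquely. The deposited values are CPM, in a table per experiment. In the *APOE*-TR table values followed (reads + 1) times the lowest value of that mouse, in that 93.5 to 94.4% of values below 100 steps came out whole within 0.02 reads, against 72.2 to 92.0% in the B6 table. Whole reads were therefore used only for *APOE*-TR mice, as an alternative. The 4 duplicated rows of each table were left out.

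CPM were rescaled between mice by TMM (edgeR 4.0.16), and log2(CPM + 0.5) was fitted with limma 3.58.1 in R 4.3.3 (lmFit, eBayes with trend) over all genes above the lowest value in every mouse of the fit, with Benjamini-Hochberg adjustment over those genes. Fold changes are on that log2 scale and understate the change of low genes. Comparisons of 4 with 4 mice were fitted alone, those over all mice with sex, genotype and nPM as terms, and differences of response on group means. Calls were an unadjusted p under 0.005 or a 5% false discovery rate. Alternatives were no rescaling, median-ratio factors, pseudocounts of 0.1 and 2, no filter and one of 10 times the lowest value, voom, ComBat (sva 3.50.0), sample quality weights, a shared variance, subsets of mice, each mouse left out, and edgeR and DESeq2 1.42.0 on recovered reads. Those without APOE3 female controls 61 and F6, without B6 male controls 0 and 2, and with GC and length adjusted in each mouse were added after seeing the data. The scripts were tested on simulated data.

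The 42 genes and all lists were chosen with earlier results of these data known. Named in each comparison were genes past the 0.005 level of unadjusted p (at most 12) and, where a direction had fewer than 3, those with the smallest p; per-mouse values of 16 core genes were fixed for description, and those of other genes follow from the named ones. *Dnm1*, *Syn1*, *Sv2a*, *Syp*, *Snap25*, *Slc17a7* and *Stx1a* belong to the 16. Groups without overlap are described mainly for genes named for a small p in the same mice. The share of all genes without overlap was not counted. Cell lineages were read from fixed marker lists. Promoter windows are from RefSeq on GRCm38.p6, gene positions are those of the deposited tables (mm10), and transcript length and GC content are of the GENCODE transcript with the longest coding sequence.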

Additional observations from a re-analysis of the deposited data

Results flagged for a closer look

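Among 16 core genes in 12 groups, 7 of 192 groups held a mouse far from its 3 companions, and chance alone gives such a mouse in about 1 group in 20. *Stx1a* was at 44.4 CPM in B6 female control 42, where the others were at 68.5 to 71.8 CPM, and at 31.3 CPM in B6 female nPM mouse 50, where the others were at 76.7 to 80.8 CPM. *Slc17a6* was at 39.5 CPM in B6 female nPM mouse 51, against 7.6 to 9.5 CPM in the others. *Rims1* was at 51.3 CPM in APOE4 female control 21, against 37.3 to 39.5 CPM. *Snap25* was at 2000 CPM in APOE4 male nPM mouse 65, against 2270 to 2320 CPM. *Syt1* was at 1270 CPM in APOE3 female control 63, against 1150 to 1170 CPM, and *Sv2a* at 365 CPM in APOE3 male control 51, against 344 to 347 CPM.

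Responses to nPM that differed between groups at the 0.005 level by limma's contrast of the responses were those of *Syngr3* between the sexes (0.3 higher in females), of *Synpr* between the alleles (0.52 higher with APOE4, and 0.83 in females alone), and, in females, of *Unc13b* (-0.84) and *Amph* (-0.3) with APOE4. Within APOE3, females had larger responses than males for *Unc13b* (0.89), *Syngr1* (0.72), *Syt1* (0.32) and *Amph* (0.29). None passed the 5% false discovery rate by limma.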

How the results depend on the processing

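No paired analysis was possible because the groups compared hold different mice. The counts are of genes among the 42 past the 0.005 level, with the reported count in brackets. For these fits the share of all genes that passed is given where it exceeded 10%, and for some further counts. Where it is not given, a change in the count cannot be told from a change over all genes.

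With sample quality weights the count was 5 for nPM in APOE3 females (1; 4.29% of all genes, against 0.665% in the reported fit). For APOE4 it was 11 in females under air (7; 23.2%), 2 in males under air (1; 1.78%) and 4 in all mice (1), *Sv2a* not among these 4. For the responses it was 0 for females minus males (1) and 10 for APOE4 minus APOE3 (1; 11.7%). It was 16 for the latter in females (3; 24%) and 14 for APOE3 females minus males (4; 23.9%). With a variance shared over the table the count was 1 for nPM in B6 males (0; 0.467%) and 21 in APOE3 females (1; 30.8%). For APOE4 it was 24 in females under air (7; 41.3%), 0 in males under air (1; 0.747%) and 0 in males under nPM (2; 0.824%). DESeq2 gave 4 for nPM in APOE3 females (1; 2.84%), where edgeR gave 0 (0.738%). For APOE4 DESeq2 gave 12 in females under air (7; 16.1%) and 2 in males under air (1; 1.69%). Voom gave 7 for APOE3 females minus males (4). Without rescaling it was 1 for APOE4 in males under nPM (2; 1.94%) and 0 for the response of females minus males (1). Females only gave 1 for nPM in all mice (0; 3.37%). *APOE*-TR mice only gave 4 for APOE4 in all mice (1), and *Sv2a* was not among the 4.

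Settings added after seeing the data gave the following. Without APOE3 female controls 61 and F6 the count was 13 for APOE4 in females under air (7; 6.69%) and 0 in all mice (1). For the responses it was 0 for females minus males (1) and 0 for APOE4 minus APOE3 (1). It was 1 for the latter in females (3) and 0 for APOE3 females minus males (4). Adjusted for GC content and length it was 0 for nPM in B6 females (1; 0.628%). For APOE4 it was 2 in males under air (1; 1.83%), 1 in males under nPM (2) and 0 in all mice (1). For the responses it was 0 for females minus males (1) and 5 for APOE4 minus APOE3 in females (3). *Pclo* for APOE4 in females under air reversed to -0.31.

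Leaving out each mouse gave, for nPM, 1 to 2 in B6 females, 0 to 6 in B6 males and 0 to 3 in APOE3 females. It gave 0 to 1 in APOE3 males, APOE4 females and APOE4 males. The 6 came without control 3, where 1.82% of all genes passed, against 0.240% in the reported fit. The 3 came without nPM mouse 55, where 1.78% passed, against 0.665%. For APOE4, leaving out each mouse gave 3 to 11 in females under air and 1 to 2 in males under air. It gave 0 to 1 in females under nPM and 0 to 2 in males under nPM. The count in females under air was 3 without APOE4 control 26 (1.52% of all genes) or 38 (1.49%). It was 11 without APOE3 control 52 (18.8% of all genes) or 63 (9.01%). edgeR and DESeq2 were not run on B6 mice, whose reads were not recovered. The cause of these changes was not tested. Estimated reads were lowest for *Sv2c*, *Syt2* and *Doc2b* in *APOE*-TR mice and *Syn3*, *Cplx3* and *Unc13b* in B6 mice.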
